A study of Rattus norvegicus with 3 samples.

Results

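The proteasome genes examined here are the rows whose symbol starts with Psma, Psmb, Psmc, Psmd, Psme, Psmf or Psmg and a number, leaving out the inducible subunits Psmb8, Psmb9, Psmb10, Psme1 and Psme2. The rule found 44 of 32883 genes. Of these, 14 encode the core particle and 17 the regulatory particle, and the other 13 are assembly chaperones, alternative caps, an inhibitor, core subunits of other tissues and Psmc3ip. Psmc3ip encodes a partner of Psmc3 in meiotic recombination and no proteasome subunit, and is included only because its symbol matches. Counts, medians and promoter windows given below for the whole set of proteasome genes include it. Psma3 is listed in the files as Psma3l, a RefSeq synonym of Psma3. Genes that reached 1 CPM (counts scaled to the size of the library) in any library were kept, which holds for 42 of the 44. Psma8, a testis subunit with 1 count in HIOP_GSK, 1 in HIOP and 2 in CTL, and Psmb11, a thymus subunit with 0 counts in HIOP_GSK, 3 in HIOP and 1 in CTL, were not kept.

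Ribosome-depleted RNA of Sprague-Dawley rat retina, at postnatal day 60, was sequenced in 3 libraries with 1 library per group. HIOP_GSK received a drug named only as GSK in the anterior chamber 24 h before ischemia, and its dose and identity are not given in the sources used here. HIOP had its eye pressure held at 110 mmHg for 60 min, which stops retinal blood flow, and was taken 12 h later; HIOP_GSK underwent the same. CTL carries the label of an untreated retina, whereas the protocol describes a sham operation with a needle at 2.66 kPa, and which applies was not settled. No vehicle-injected library is described, so the drug and the injection cannot be told apart, and the number of animals behind each library is not stated.

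The deposited counts totalled 15132754 in HIOP_GSK, 17221510 in HIOP and 16090064 in CTL. Since each group has 1 library, differences between libraries have no replicate check, and p-values are not given. Ratios below are of scaled counts, with an exact 95% interval of the ratio of the counts that covers counting error only. Both HIOP_GSK over HIOP and HIOP over CTL use the HIOP library, and HIOP_GSK over CTL shares a library with each, so the comparisons are not independent.

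The proteasome degrades proteins tagged with ubiquitin. Its core particle is a barrel of outer rings of alpha subunits, which gate the entrance, and inner rings of beta subunits, of which Psmb5, Psmb6 and Psmb7 cut peptide bonds. The regulatory particle caps the barrel: a ring of ATPases unfolds the substrate, and other subunits of the base and lid bind and remove ubiquitin. The transcription factor Nfe2l1 is known to raise proteasome genes when proteasome activity is low, together with small Maf proteins, through antioxidant response elements, whose letters include TGACNNNGC.

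Promoter windows from RefSeq (build GRCr8; 250 bases before the annotated start and 50 after it) matched 39 of the 44 genes. In 5 of the core and regulatory particle genes, the window held TGACNNNGC, on either strand, wholly before the start; their 250 bases before the start are shown because this element is the known link between Nfe2l1 and these genes. They lie at chr15:32047380-32047629 on the minus strand (Psmb5), and on the plus strand at chr10:55737638-55737887 (Psmb6), chr5:144254808-144255057 (Psmb2), chr6:95219499-95219748 (Psma3) and chr9:94157721-94157970 (Psmd1). Each is written 5′ to 3′ in the direction of its gene, with the match in capitals.
Psmb5: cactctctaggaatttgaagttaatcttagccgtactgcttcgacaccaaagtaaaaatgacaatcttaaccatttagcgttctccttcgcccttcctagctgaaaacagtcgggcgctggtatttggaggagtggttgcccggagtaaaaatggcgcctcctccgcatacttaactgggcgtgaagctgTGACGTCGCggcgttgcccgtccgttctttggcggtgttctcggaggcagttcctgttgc
Psmb6: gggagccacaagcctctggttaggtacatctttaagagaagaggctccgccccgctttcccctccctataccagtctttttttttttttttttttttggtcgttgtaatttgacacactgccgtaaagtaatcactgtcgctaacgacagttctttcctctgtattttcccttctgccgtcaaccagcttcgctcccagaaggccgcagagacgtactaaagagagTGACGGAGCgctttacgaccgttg
Psmb2: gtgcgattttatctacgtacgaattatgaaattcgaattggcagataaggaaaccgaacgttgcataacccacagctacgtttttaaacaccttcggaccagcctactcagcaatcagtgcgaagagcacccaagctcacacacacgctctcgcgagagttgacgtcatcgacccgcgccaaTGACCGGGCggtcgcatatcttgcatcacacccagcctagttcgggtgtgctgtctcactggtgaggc
Psma3: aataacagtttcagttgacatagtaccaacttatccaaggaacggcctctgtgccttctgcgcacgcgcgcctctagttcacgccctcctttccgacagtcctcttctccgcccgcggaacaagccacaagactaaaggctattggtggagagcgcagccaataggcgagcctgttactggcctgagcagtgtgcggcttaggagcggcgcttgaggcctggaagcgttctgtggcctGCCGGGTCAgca
Psmd1: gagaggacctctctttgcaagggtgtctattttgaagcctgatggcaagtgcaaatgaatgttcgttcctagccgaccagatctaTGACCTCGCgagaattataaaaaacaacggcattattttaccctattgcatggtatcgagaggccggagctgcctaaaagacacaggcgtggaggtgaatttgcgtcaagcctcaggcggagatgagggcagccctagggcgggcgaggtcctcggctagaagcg
The first capital stands at position -60 in Psmb5, -24 in Psmb6, -68 in Psmb2, -12 in Psma3 and -165 in Psmd1, counted from the start with the base before it as -1. The Psma3 match is on the opposite strand. The motif was found in 20.5% of the 39 windows (8 genes), in 12.1% of all 33469 windows and in 14.5% of the 12013 windows of kept genes. Searched on both strands in the same windows, the related TGAGNNNGC was in 25.6% of the proteasome windows and 19.8% of those of kept genes. CCAAT, the letters bound by NF-Y, was in 51.3% against 36.5%. CGGAAG, an Ets-type site, was in 59.0% against 27.6%, and GGGCGG, an Sp1-type site, in 74.4% against 59.4%. GAANNTTC, part of the heat shock element, was in 5.13% against 5.71%. A match describes letters in a window and is no evidence of binding.

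The core and regulatory particle genes were higher in HIOP than in CTL by a modest and similar amount. All 31 had a ratio above 1 with an interval wholly above 1, and none reached 2-fold. The median log2 ratio was 0.50 for the 14 core genes and 0.40 for the 17 regulatory genes, or 0.45 over the 42 kept proteasome genes, and 0.00 over all 15543 kept genes. In this comparison 17.0% of all kept genes differed by at least 2-fold in either direction, and 8.72% of the 6270 kept genes whose mean CPM lay in the range of the particle subunits (27.1 to 209), against 0 of the 42 proteasome genes. Psme4, Psmc3ip and the assembly chaperones other than Psmd5 lay outside this range, so only the 31 particle genes are matched to it in full. At least 1.5-fold higher were 6 of 42 and 4 of the 31, against 16.1% of all kept genes and 12.6% of those 6270. An interval wholly above 1 was found for 38 of 42, against 32.7% of all kept genes and 42.5% of those 6270. In bulk tissue, a change in RNA per cell and a change in which cells are present cannot be told apart.

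**Figure D1:**
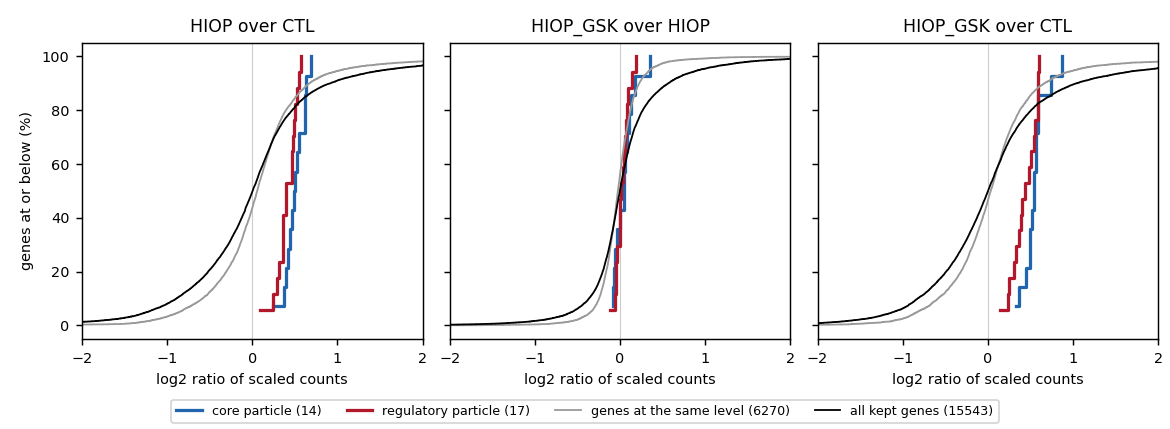
Cumulative share of genes (vertical axis, %) at or below each log2 ratio of scaled counts (horizontal axis) for the core particle, the regulatory particle, kept genes at the same level and all kept genes, in each comparison. In HIOP over CTL the steps of both particles lie within a narrow range above 0, with medians of 0.50 and 0.40, while in HIOP_GSK over HIOP they lie around 0.

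The spread among subunits was narrow. The SD of the log2 ratio of HIOP over CTL was 0.12 over the core genes and 0.12 over the regulatory genes, against 0.75 over kept genes at the same level. Together the core genes took 0.110% of all counts in HIOP_GSK, 0.106% in HIOP and 0.0759% in CTL. The regulatory genes took 0.188% in HIOP_GSK, 0.183% in HIOP and 0.141% in CTL. The summed ratio of HIOP over CTL was 1.40 (1.37 to 1.44) for the core and 1.31 (1.29 to 1.33) for the regulatory particle.

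The ratio was thus slightly larger for the core than for the regulatory particle, and the balance of the 2 can be read without any scaling of the libraries. Of the counts of both particles together, the core took 37.0% in HIOP_GSK (36.5 to 37.4), 36.6% in HIOP (36.2 to 37.0) and 35.0% in CTL (34.5 to 35.5; exact binomial 95% intervals, counting error only). In TPM (transcript abundance per length, scaled to a fixed sum), the core share of both particles was 53.9% in HIOP_GSK, 53.3% in HIOP and 51.6% in CTL. Gene by gene the distributions overlapped. The core ratio exceeded the regulatory median in 11 of 14 genes, and 4 of 17 regulatory genes exceeded the core median. In TPM the medians of HIOP over CTL were 0.37 for the core and 0.33 for the regulatory genes, on the log2 scale. Over all kept genes the TPM median in this comparison was -0.083, against 0.00 in scaled counts.

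Levels between genes are compared in deposited TPM only. The median core gene stood at 97.8 TPM in HIOP_GSK, 92.7 in HIOP and 70.2 in CTL, and the median regulatory gene at 72.5 TPM in HIOP_GSK, 74.1 in HIOP and 58.7 in CTL. The core levels spanned 2.67-fold in HIOP_GSK, 2.75-fold in HIOP and 2.61-fold in CTL from the lowest to the highest gene, with a coefficient of variation between 28.6% and 31.9%. Psma7, Psmb1 and Psma6 were the 3 highest of the 31 in each library. Psmd13 and Psmd14 were the 2 lowest. In between, Psmb4 ranked 10 in HIOP_GSK, 14 in HIOP and 23 in CTL, and Psmd11 ranked 23 in HIOP_GSK, 26 in HIOP and 15 in CTL. Neighbours in this order differ by amounts that cannot be set against any replicate spread.

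**Figure D2:**
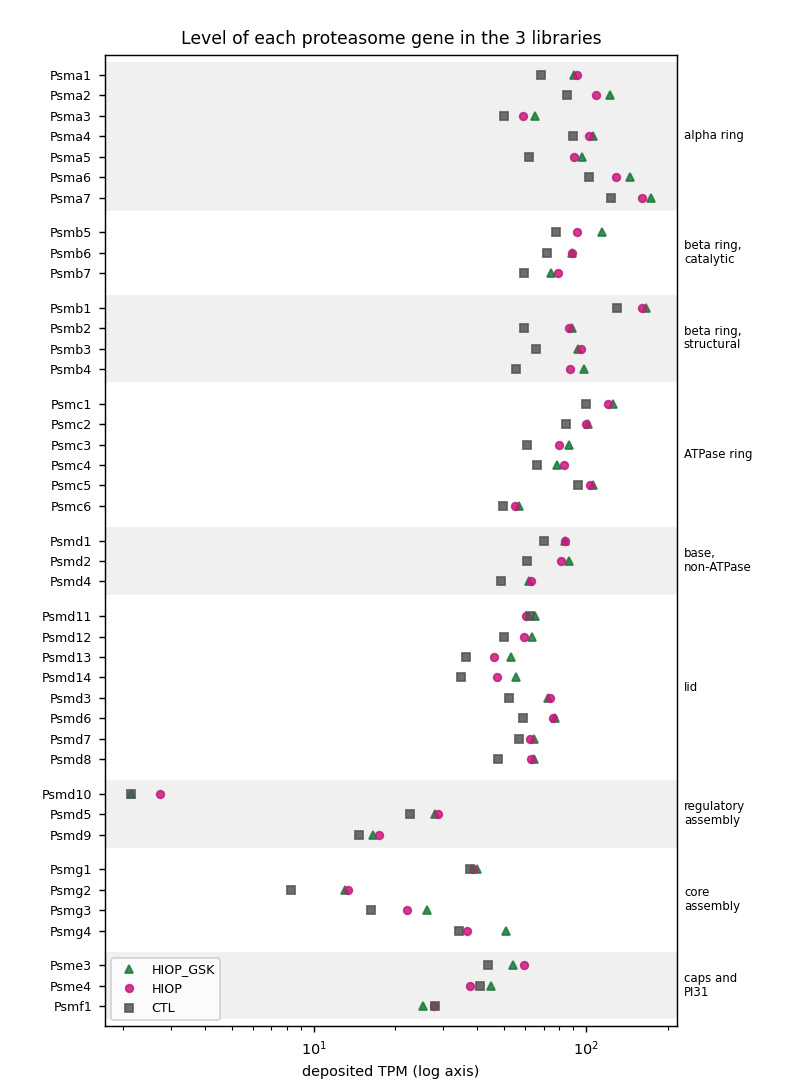
Deposited TPM (horizontal log axis) of each kept proteasome gene except Psmc3ip, grouped by role. Each of the HIOP_GSK, HIOP and CTL libraries has a point. Core and regulatory subunits lie between 34.7 and 174 TPM, and all 7 assembly chaperones lie below the lowest of them in HIOP_GSK and in HIOP, and 6 of 7 in CTL.

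The alpha ring, whose subunits form the gate of the core, had a median log2 ratio of 0.47 in HIOP over CTL. Psma5 had 63.9 CPM in HIOP_GSK, 59.5 in HIOP and 38.3 in CTL, and was 1.55-fold higher in HIOP (1.40 to 1.72), the largest ratio in this ring. Psma4 had 88.3 CPM in HIOP_GSK, 93.1 in HIOP and 70.5 in CTL, a ratio of 1.32 (1.22 to 1.43), the smallest. The intervals of Psma5 and Psma4, the ends of the ring in this ratio, overlap. Psma1 stood at 78.1 CPM in HIOP_GSK, 82.5 in HIOP and 53.6 in CTL, with 1.54 (1.42 to 1.68) for HIOP over CTL and 0.946 (0.875 to 1.02) for HIOP_GSK over HIOP. Psma3 stood at 166 CPM in HIOP_GSK, 152 in HIOP and 114 in CTL, with 1.34 (1.26 to 1.42) for HIOP over CTL and 1.09 (1.03 to 1.15) for HIOP_GSK over HIOP. It was the only alpha gene whose interval for HIOP_GSK over HIOP excluded 1.

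The 3 catalytic subunits differed in their ratios. Psmb5, the chymotrypsin-like site, had 33.2 CPM in HIOP_GSK, 26.1 in HIOP and 22.1 in CTL. Its ratio of HIOP over CTL, 1.18 (1.03 to 1.36), was the smallest of the core genes, and its ratio of HIOP_GSK over HIOP, 1.27 (1.12 to 1.45), the largest of them. The deposited TPM gave the same order, 115 in HIOP_GSK, 92.6 in HIOP and 78.1 in CTL. Psmb6, the caspase-like site, had 55.8 CPM in HIOP_GSK, 53.6 in HIOP and 37.8 in CTL, with ratios of 1.42 (1.28 to 1.57) for HIOP over CTL and 1.04 (0.948 to 1.14) for HIOP_GSK over HIOP. Psmb7, the trypsin-like site, had 46.7 CPM in HIOP_GSK, 49.6 in HIOP and 34.3 in CTL, with ratios of 1.45 (1.3 to 1.61) for HIOP over CTL and 0.941 (0.850 to 1.04) for HIOP_GSK over HIOP. The Psmb5 and Psmb7 intervals for HIOP_GSK over HIOP do not overlap, and both cover counting error only.

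Among the structural beta subunits, which complete the inner ring without cutting, Psmb4 had the largest ratio of HIOP over CTL. It had 86.0 CPM in HIOP_GSK, 75.9 in HIOP and 47.1 in CTL, with ratios of 1.61 (1.47 to 1.77) for HIOP over CTL and, for HIOP_GSK over HIOP, 1.13 (1.05 to 1.22). Psmb1 had 122 CPM in HIOP_GSK, 122 in HIOP and 94.3 in CTL, a ratio of HIOP over CTL of 1.29 (1.21 to 1.38). Psmb3 had 45.9 CPM in HIOP_GSK, 48.0 in HIOP and 32.6 in CTL, with ratios of 1.47 (1.32 to 1.64) for HIOP over CTL and 0.958 (0.865 to 1.06) for HIOP_GSK over HIOP. Psmb2 was 1.54-fold higher in HIOP (1.38 to 1.72). The core genes at least 1.5-fold higher in HIOP were therefore Psma1, Psma5, Psmb2 and Psmb4. In deposited TPM only Psmb4 of these passed that limit, and 2 of all 42 genes (Psmb4 and Psmg2) against 12.1% of all kept genes.

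**Figure D3:**
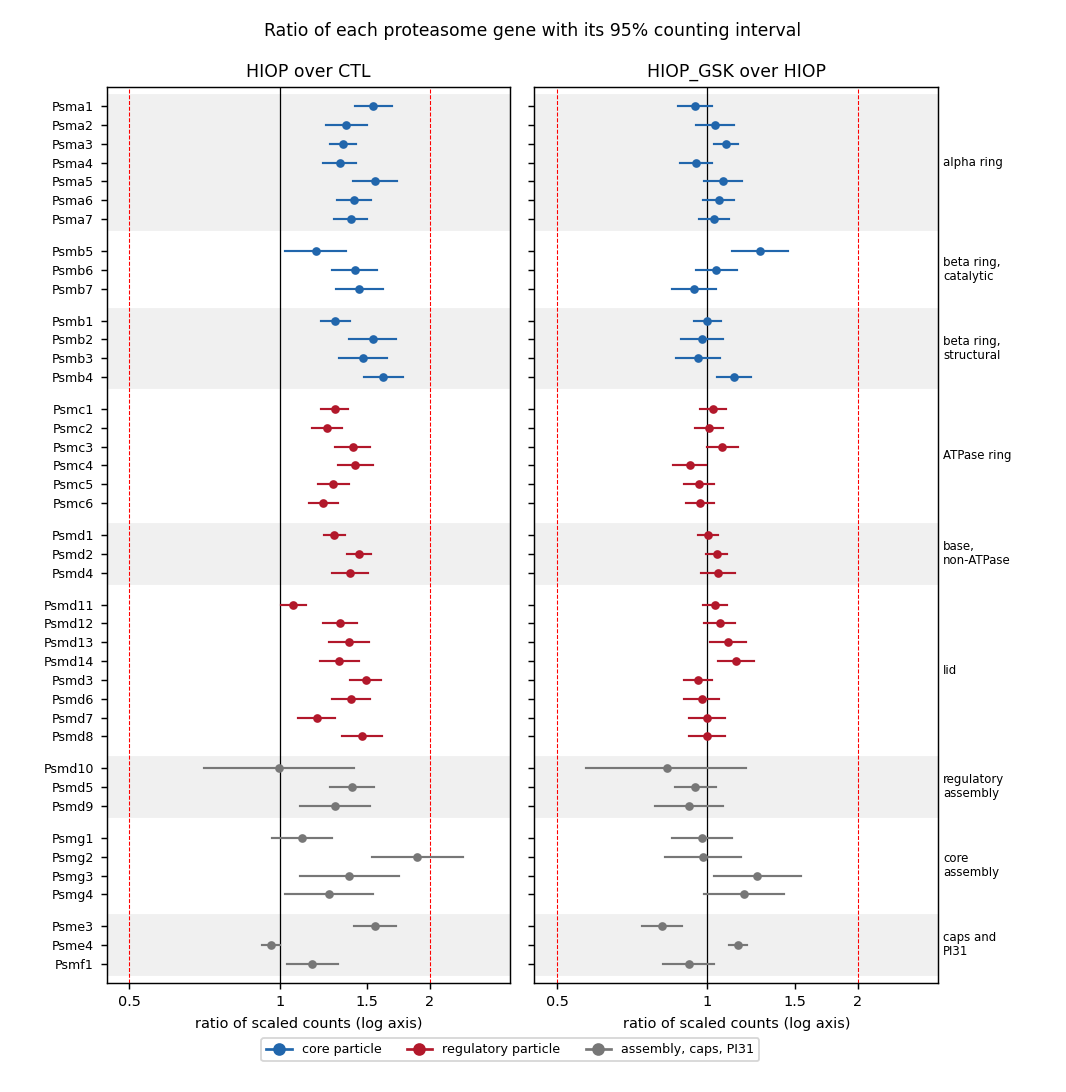
Ratio of scaled counts (horizontal log axis) with its exact 95% counting interval for each kept proteasome gene except Psmc3ip. HIOP over CTL is on the left and HIOP_GSK over HIOP on the right. The particle subunits lie between 1.07 and 1.61 on the left and between 0.921 and 1.27 on the right, and no gene reaches 2-fold.

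In the regulatory particle, the 6 ATPases had a median log2 ratio of 0.36. Psmc4 had 79.6 CPM in HIOP_GSK, 86.5 in HIOP and 61.0 in CTL. Its ratio of HIOP over CTL, 1.42 (1.31 to 1.54), was the largest of the ATPases, and its ratio of HIOP_GSK over HIOP, 0.921 (0.853 to 0.994), the smallest of them. Psmc6 was the lowest in HIOP over CTL, 1.22 (1.14 to 1.31), at 114 CPM in HIOP_GSK, 118 in HIOP and 96.7 in CTL. Psmc3 had 97.9 CPM in HIOP_GSK, 91.5 in HIOP and 65.4 in CTL, with 1.40 (1.29 to 1.52) for HIOP over CTL and 1.07 (0.996 to 1.15) for HIOP_GSK over HIOP. The 6 genes thus lay between 1.22 and 1.42 in HIOP over CTL.

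The base holds the scaffolds Psmd1 and Psmd2 and the ubiquitin receptor Psmd4. Psmd2 had 193 CPM in HIOP_GSK, 185 in HIOP and 128 in CTL, with 1.44 (1.36 to 1.52) in HIOP over CTL. Psmd1 had 226 CPM in HIOP_GSK, 225 in HIOP and 175 in CTL, with 1.29 (1.23 to 1.35) for HIOP over CTL, and its HIOP_GSK over HIOP ratio was 1.0 (0.956 to 1.05). Psmd4 had 83.5 CPM in HIOP_GSK, 79.5 in HIOP and 57.4 in CTL, with 1.38 (1.27 to 1.51) for HIOP over CTL and 1.05 (0.973 to 1.13) for HIOP_GSK over HIOP. All 3 were higher in HIOP than in CTL beyond counting error.

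The lid, which carries the deubiquitinase Psmd14, had a median log2 ratio of 0.43 and, of the 3 groups of the regulatory particle, the widest range (0.09 to 0.57). Psmd3 had 112 CPM in HIOP_GSK, 117 in HIOP and 78.6 in CTL, with 1.49 (1.39 to 1.6) for HIOP over CTL and 0.957 (0.897 to 1.02) for HIOP_GSK over HIOP. Psmd11 had 153 CPM in HIOP_GSK, 148 in HIOP and 139 in CTL, with 1.07 (1.01 to 1.13) for HIOP over CTL, the smallest of the 31 particle genes. In deposited TPM, Psmd11 was slightly lower in HIOP than in CTL, at 65.3 in HIOP_GSK, 60.4 in HIOP and 62.7 in CTL. Its TPM log2 ratio of HIOP over CTL, -0.054, still lay above the median of all kept genes in TPM, -0.083. Psmd14 had 75.0 CPM in HIOP_GSK, 65.8 in HIOP and 49.9 in CTL, with 1.32 (1.2 to 1.44) for HIOP over CTL and 1.14 (1.05 to 1.24) for HIOP_GSK over HIOP, the highest regulatory ratio in HIOP_GSK over HIOP.

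The assembly chaperones are not part of the finished proteasome. Psmg2, which helps to build the alpha ring, had 16.1 CPM in HIOP_GSK, 16.4 in HIOP and 8.70 in CTL, and its ratio of HIOP over CTL, 1.89 (1.54 to 2.33), was the largest of the 42. It rests on 245 counts in HIOP_GSK, 281 in HIOP and 140 in CTL. Psmg1, the partner of Psmg2, had 26.1 CPM in HIOP_GSK, 26.8 in HIOP and 24.1 in CTL, a ratio of 1.11 (0.967 to 1.27). The 2 partners thus had intervals that do not overlap. Psmg3 had 14.1 CPM in HIOP_GSK, 11.2 in HIOP and 8.14 in CTL, with 1.38 (1.10 to 1.73) for HIOP over CTL and 1.26 (1.03 to 1.54) for HIOP_GSK over HIOP.

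Of the chaperones of the regulatory base, Psmd5 had 52.4 CPM in HIOP_GSK, 55.4 in HIOP and 39.7 in CTL, with 1.40 (1.26 to 1.55) for HIOP over CTL. Psmd9 had 19.6 CPM in HIOP_GSK, 21.3 in HIOP and 16.5 in CTL, with 1.29 (1.10 to 1.52) for HIOP over CTL. Psmd10 (gankyrin) had 53 counts in HIOP_GSK, 72 in HIOP and 68 in CTL, and its ratio of 0.996 (0.705 to 1.41) is too imprecise to place. In HIOP_GSK over HIOP, Psmd5, Psmd9 and Psmd10 were 0.946, 0.919 and 0.828, each with an interval that includes 1.

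The alternative caps differed in direction. Psme3, the nuclear PA28 gamma cap, had 52.2 CPM in HIOP_GSK, 64.3 in HIOP and 41.4 in CTL, with 1.55 (1.41 to 1.71) for HIOP over CTL and, for HIOP_GSK over HIOP, 0.812 (0.740 to 0.891). Psme4, the PA200 cap, had 312 CPM in HIOP_GSK, 271 in HIOP and 283 in CTL, with 0.960 (0.921 to 1.0) for HIOP over CTL and 1.15 (1.11 to 1.2) for HIOP_GSK over HIOP. The HIOP level of Psme3 was thus the highest of its 3 libraries and that of Psme4 the lowest. Psmf1 (PI31), an inhibitor of the core in vitro, had 34.8 CPM in HIOP_GSK, 37.9 in HIOP and 32.6 in CTL, with 1.16 (1.03 to 1.31) for HIOP over CTL, and its TPM was 25.2 in HIOP_GSK, 27.7 in HIOP and 27.8 in CTL. Psmc3ip had 11.8 CPM in HIOP_GSK, 15.5 in HIOP and 13.5 in CTL, with 1.15 (0.956 to 1.38) for HIOP over CTL and 0.764 (0.629 to 0.927) for HIOP_GSK over HIOP.

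In HIOP_GSK over HIOP the median log2 ratio was 0.05 for the core, 0.01 for the regulatory particle and 0.00 over the 42 genes. None of the 42 differed by at least 2-fold, a limit passed by 6.25% of all kept genes but by 1.16% of those at the same level, and none was at least 1.5-fold higher, against 9.68% of all kept genes and 1.87% of those at the same level. The interval left out 1 for 10 of 42, against 40.1% of all kept genes. It was above 1 for Psma3, Psmb4, Psmb5, Psmd13, Psmd14, Psmg3 and Psme4, and below 1 for Psmc4, Psme3 and Psmc3ip.

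In HIOP_GSK over CTL the medians were 0.54 for the core and 0.44 for the regulatory particle. No proteasome gene differed by at least 2-fold, against 16.8% of all kept genes and 7.85% of those at the same level. At least 1.5-fold higher were 8 of 42, against 17.6% of all kept genes: Psma5, Psmb4, Psmb5, Psmd2, Psmd13, Psmd14, Psmg2 and Psmg3. The 31 particle genes held 6 of these, against 11.7% of kept genes at the same level. In deposited TPM, 5 of 42 passed this 1.5-fold limit, against 14.8% of all kept genes, without Psmb5, Psmd2 and Psmd13. The largest ratio of a particle gene was that of Psmb4, 1.83 (1.67 to 2.0).

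The inducible subunits, left out of the rule, differed far more. Psmb8, Psmb9 and Psmb10 replace Psmb5, Psmb6 and Psmb7 in the immunoproteasome, and Psme1 and Psme2 form the PA28 cap. All 5 passed 2-fold in HIOP over CTL, each upwards, against 17.0% of all kept genes in either direction. Their median log2 ratio was 1.67. Psmb8 had 170 counts in HIOP_GSK, 114 in HIOP and 14 in CTL, a ratio of HIOP over CTL of 7.66 (4.38 to 14.4). Psmb9 had 329 counts in HIOP_GSK, 191 in HIOP and 27 in CTL, with 6.65 (4.43 to 10.4) for HIOP over CTL, and Psmb10 had 261 counts in HIOP_GSK, 288 in HIOP and 84 in CTL, with 3.22 (2.52 to 4.16) for HIOP over CTL.

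In TPM, however, the constitutive partner remained the more abundant in every pair and library. Psmb8 made up 11.8% of the Psmb5 and Psmb8 pair in HIOP_GSK, 9.60% in HIOP and 1.59% in CTL. Psmb9 made up 27.9% in HIOP_GSK, 17.3% in HIOP and 4.17% in CTL of its pair with Psmb6. Psmb10 made up 26.0% in HIOP_GSK, 22.7% in HIOP and 10.5% in CTL of its pair with Psmb7. The inducible share was thus higher in both ischemic libraries than in CTL for all 3 pairs, and higher in HIOP_GSK than in HIOP. In scaled counts, HIOP_GSK over HIOP was 1.68 (1.32 to 2.15) for Psmb8 and 1.94 (1.62 to 2.33) for Psmb9. For Psmb10 and Psmb7 the intervals held 1, at 1.02 (0.859 to 1.21) and 0.941 (0.850 to 1.04).

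**Figure D4:**
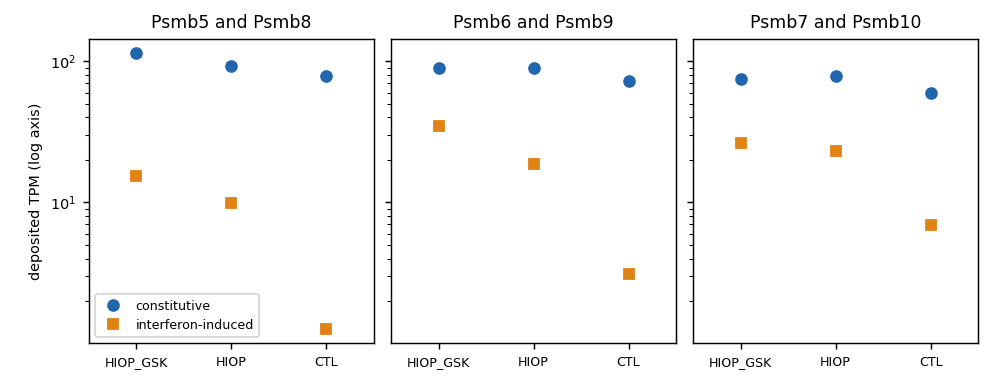
Deposited TPM (vertical log axis) of each constitutive catalytic subunit and its inducible counterpart in HIOP_GSK, HIOP and CTL. The counterpart lies below its constitutive partner in each panel and library, at 1.26 against 78.1 TPM for Psmb8 and Psmb5 in CTL.

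Genes that work with the proteasome were counted from lists by function. Of 12 associated enzymes and shuttles, 0 were at least 2-fold higher or lower in HIOP than in CTL, with a median log2 ratio of 0.25. Rad23b, which carries ubiquitinated proteins to the proteasome, had 215 CPM in HIOP and 141 in CTL, a ratio of 1.52 (1.44 to 1.6), and Ubqln2, another shuttle, was at 0.796 (0.749 to 0.846). Of 8 genes of the p97 unfoldase and its cofactors, 0 passed 2-fold, with a median of 0.34. The share of all kept genes past 2-fold in either direction was 17.0%, so 0 in lists this short says little. Adrm1, a further ubiquitin receptor of the regulatory particle, was at 1.5 (1.35 to 1.67). Pomp, a core chaperone, had 16 counts in HIOP_GSK, 6 in HIOP and 5 in CTL, too few to place.

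Among 7 rows of ubiquitin genes and E1 enzymes, 2 passed 2-fold upwards in HIOP and 0 downwards, against the same 17.0% of all kept genes, with a median of 0.27. Both are rows of the same gene name, Rps27a, a ubiquitin fusion gene, at 2.01 (1.91 to 2.11) and 3.16 (2.33 to 4.36). Of 14 listed regulators of proteasome genes, 3 passed 2-fold upwards and 0 downwards, a share close to the 17.0% of all kept genes that passed it in either direction, with a median of 0.21. Maff, a small Maf partner, had 228 counts in HIOP_GSK, 327 in HIOP and 23 in CTL, a ratio of HIOP over CTL of 13.4 (8.76 to 21.4). Stat3 was at 5.67 (5.38 to 5.98) and Mafk at 2.41 (1.97 to 2.96). Nfe2l1, the factor named above, had 129 CPM in HIOP_GSK, 137 in HIOP and 141 in CTL, with 0.974 (0.919 to 1.03) for HIOP over CTL. Its relative Nfe2l2 had 89.7 CPM in HIOP_GSK, 49.6 in HIOP and 26.7 in CTL, with 1.86 (1.65 to 2.09) for HIOP over CTL and 1.81 (1.66 to 1.97) for HIOP_GSK over HIOP.

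Complexes built like the lid and other large assemblies were set beside the proteasome. The COP9 signalosome, a relative of the lid, had a median log2 ratio of HIOP over CTL of 0.19 over 10 genes, with 0 past 2-fold. The translation factor eIF3, whose core shares the fold of the lid, had 0.68 over 12 genes, with 1 at least 2-fold higher, Eif3b at 2.5 (2.31 to 2.69). The chaperonin TRiC, a folding machine for actin and tubulin, had 0.57 over 8 genes, with 0 past 2-fold. The proteasome medians of 0.50 and 0.40 thus lay between those of the COP9 signalosome and of TRiC and eIF3. The log2 ratios spread about as narrowly in the COP9 signalosome and TRiC (SDs of 0.11 and 0.14) as in the particles (0.12). They spread more widely in eIF3 (0.28) and in the alternative caps with PI31 (0.35). Of 6 kept stress chaperones, 2 passed 2-fold, both higher in HIOP, Hspb1 at 4.25 (3.21 to 5.69) and Bag3 at 2.24 (1.81 to 2.78). Of all kept genes, 17.0% passed 2-fold in either direction, so counts of 0 or 1 in such short lists say little.

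**Figure D5:**
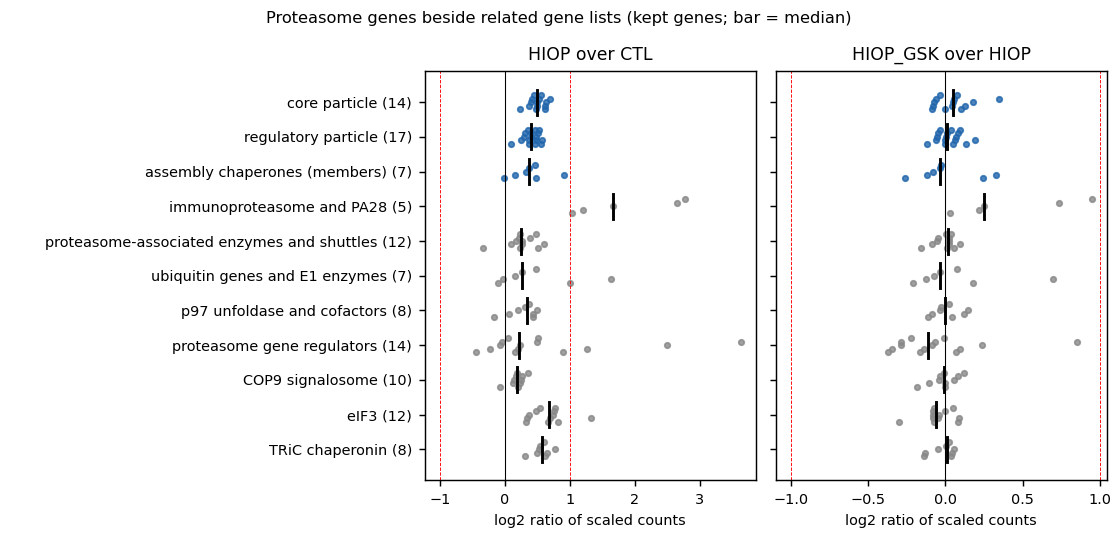
Log2 ratio of scaled counts (horizontal axis) of each kept gene in the proteasome groups (blue) and the related lists (grey), with a bar at each median. In HIOP over CTL on the left the core and regulatory medians are 0.50 and 0.40, and the inducible subunits have a median of 1.67.

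Markers of other cells moved between the same libraries. Rod markers took 1.87% of counts in HIOP_GSK, 2.61% in HIOP and 2.72% in CTL. Müller glia markers took 0.220% in HIOP_GSK, 0.162% in HIOP and 0.266% in CTL. Of these 6 genes, Vim was 2.37-fold higher in HIOP than in CTL (2.28 to 2.46), whereas Kcnj10 at 0.0362 (0.0185 to 0.0641), Rlbp1 at 0.167 (0.155 to 0.181) and the other 3 were lower, with a median log2 ratio of -1.87. Ganglion cell markers took 0.0189% in HIOP_GSK, 0.0167% in HIOP and 0.0383% in CTL. Neutrophil markers summed to 2321 counts in HIOP_GSK, 2281 in HIOP and 19 in CTL. Of the 8, 6 had 0 counts in CTL, and 2 of these, Mpo and Ltf, had 0 in every library. In HIOP_GSK over HIOP the 6 kept neutrophil markers split, with intervals above 1 for 2, below 1 for 3 and holding 1 for 1. Lens markers took 1.0% in HIOP_GSK, 0.277% in HIOP and 0.104% in CTL, and microglia markers summed to 1225 counts in HIOP_GSK, 442 in HIOP and 541 in CTL. Corneal and surface epithelium markers summed to 841 counts in HIOP_GSK, 214 in HIOP and 4254 in CTL, with 1 of 5 at 0 in HIOP. Pigment epithelium markers summed to 2960 counts in HIOP_GSK, 2351 in HIOP and 5358 in CTL, and red blood cell markers to 2638 counts in HIOP_GSK, 6877 in HIOP and 2848 in CTL. Markers of dividing cells summed to 1310 counts in HIOP_GSK, 180 in HIOP and 243 in CTL. Their part in the proteasome ratios was not tested.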

How the data were processed

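RNA of 3 rat retina libraries, 1 per group, was analysed. The counts deposited by the authors are whole numbers per gene and were used unchanged, although the plan had expected estimated counts that need rounding. The TPM values deposited by the authors sum to 1e+06 per library and come from a different quantification than the counts: 17, 17 and 19 genes in HIOP_GSK, HIOP and CTL combined 0 counts with a TPM over 1. STAR 2.5.4b, RSEM 1.3.1 and the build Rnor_6.0 are named per the submitters' processing notes, without the role of each. The strand setting of the counting is not given in the sources used here; overlapping and antisense genes are therefore uncertain. RefSeq lists 46 pseudogenes or copies of 17 of the 44 genes, whose reads the counting could have split.

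TMM scaling over the whole table with edgeR 4.0.16 under R 4.3.3 gave factors of 1.01, 0.994 and 1.0 for HIOP_GSK, HIOP and CTL. Log2 ratios used a prior count of 2. Ratios of named genes have no prior and carry exact Clopper-Pearson 95% intervals, computed in R. Those of summed ratios and shares were computed with scipy 1.17.1. All of these intervals treat reads as independent molecules. Limits were 2-fold and 1.5-fold. The functions were tested on simulated data. Alternatives were total counts, DESeq2 1.42.0 size factors, TMM without mitochondrial and the 20 most abundant genes, log2 of TPM plus 0.5, leaving out the filter, raising it to CPM 5, and prior counts of 0.5 and 10. The background of genes at the level of the subunits was added after seeing the data.

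The genes and lists were chosen with earlier results of these data known. Named genes are the catalytic subunits, the genes with the largest and smallest ratio in each role for HIOP over CTL and HIOP_GSK over HIOP, and up to 3 genes per related list with the interval bound farthest from no difference. Psmb2, Ubqln2, Nfe2l1, Nfe2l2 and Pomp were named after their values were seen. Of the related lists, Eif3e was matched as Eif3el1, and Eif3i, Paaf1 and Itgam were not analysed here.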

Additional observations from a re-analysis of the deposited data

How the results depend on the processing

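No paired analysis was possible because each group has 1 library, and for the same reason no library could be left out. No gene that passed 1.5-fold changed direction under any alternative listed. The medians of the core, the regulatory particle and all kept proteasome genes did not reach that limit. Total counts, DESeq2 size factors, the other TMM scaling, a filter at CPM 5 and a prior count of 0.5 moved no count by more than 1.5 times and no median beyond its counting interval. With the deposited TPM, the 1.5-fold limit was passed upwards by 2 genes in HIOP over CTL and 5 genes in HIOP_GSK over CTL. The TPM medians (log2) over all kept proteasome genes, core and regulatory particle were 0.33, 0.37 and 0.33 for HIOP over CTL, 0.045, 0.077 and 0.046 for HIOP_GSK over HIOP, and 0.35, 0.49 and 0.35 for HIOP_GSK over CTL. Over all kept genes the TPM medians were -0.083 for HIOP over CTL, 0.018 for HIOP_GSK over HIOP and -0.051 for HIOP_GSK over CTL. TPM also put Psmd11, Psmf1 and Psmc3ip under 1 in HIOP over CTL, each above the median of all kept genes. Without the filter, Psmb11, at 0 counts in HIOP_GSK, added 1 gene at least 2-fold and 1 gene at least 1.5-fold lower in HIOP_GSK over HIOP and 1 gene at least 1.5-fold lower in HIOP_GSK over CTL, where the median over all 44 genes was 0.46. With a prior count of 10, that limit was passed upwards by 5 genes in HIOP_GSK over CTL. Apart from the filter and prior, whose effect is by construction, the cause was not tested.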
